A study of Rattus norvegicus with 25 samples.

Results

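The hippocampal transcriptome 20 min after a forced swim was compared with that of rats that did not swim, in 19 of the 25 libraries and 13 of the 19 rats of the study. Samples were chosen by their treatment labels, which gave 7 rats decapitated 20 min after the forced swim test (20-m group: rats 1, 2, 5, 6, 7, 10 and 12) and 6 control rats (rats 21, 22, 24, 25, 27 and 28). All were male Sprague Dawley rats, with no genetic change or drug named, and the sources used here give no ages. Rats of the 20-m group had also swum in a pretest on the day before, so the test swim, the earlier swim, and the handling and wetting that go with them cannot be told apart. The labels put 3 rats of each group in batch 1, and 3 rats of the 20-m group with 1 control rat in batch 2. Batches 3, 4 and 5 each held a sequencing run of rat 10 (20-m group) and of control rats 21 and 27, whose 3 runs were added up to 1 library each. Levels are given in CPM, the counts of a gene scaled to a common library size with TMM normalization. The summed counts were 6217562 to 9032877 per control rat and 6513085 to 7774046 per rat of the 20-m group. Of the genes in the files, 13908 had enough counts to be tested.

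The study treats the forced swim as an acute stressor and asks which genes differ in expression soon after it. Immediate early genes are transcribed within minutes of a stimulus, without new protein synthesis. In the hippocampus they are known to respond to neuronal activity and to stress. Kinase cascades that end on transcription factors bound at their promoters, such as CREB at cAMP response elements and the serum response factor at CArG boxes, switch them on. Many of their products are transcription factors, and others, such as phosphatases of MAP kinases and proteins that destroy mRNA, damp the same response. The files list Ensembl identifiers only. Symbols were at hand for 11 of the identifiers tested, from the study's own list of changed genes, which was chosen on these rats. Other pathway genes and the markers of hippocampal cell types were therefore not analysed here, and the tissue label was not checked against such markers. In bulk tissue, a change in the number of cells of a type and a change in RNA per cell cannot be told apart.

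The promoters of the 5 named genes that passed both thresholds of the comparison are shown, since these genes stood higher together. RefSeq promoters (assembly GRCr8, which is not the assembly the authors aligned to) were matched for 7 of 11 symbols. No entry was matched for Atf3, Fos, Klf2 and AABR07033249.1. Each sequence is the strand of the gene and covers the 250 bases before its start. Capitals mark the motifs found on either strand. These motifs were TGACGTCA, the full cAMP response element, TGACG, its core, which the full element also contains, TATAAA, and the CArG box. TGANTCA, the AP-1 site, was searched as well. Dusp1 lies at chr10:17184603-17184852 (plus strand), Apold1 at chr4:169552349-169552598 (plus strand), Ccn1 at chr2:237225690-237225939 (minus strand), Sik1 at chr20:9958647-9958896 (minus strand) and Zfp36 at chr1:92799109-92799358 (minus strand).
Dusp1: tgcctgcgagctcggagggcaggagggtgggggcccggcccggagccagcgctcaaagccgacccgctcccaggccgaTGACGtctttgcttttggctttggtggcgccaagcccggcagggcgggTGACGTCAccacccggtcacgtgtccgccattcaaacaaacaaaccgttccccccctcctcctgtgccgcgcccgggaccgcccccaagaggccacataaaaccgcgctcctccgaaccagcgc
Apold1: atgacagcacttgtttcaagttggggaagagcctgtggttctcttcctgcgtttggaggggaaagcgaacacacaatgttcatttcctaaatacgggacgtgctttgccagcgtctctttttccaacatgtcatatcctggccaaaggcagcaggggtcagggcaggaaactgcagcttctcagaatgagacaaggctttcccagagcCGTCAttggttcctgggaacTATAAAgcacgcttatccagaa
Ccn1: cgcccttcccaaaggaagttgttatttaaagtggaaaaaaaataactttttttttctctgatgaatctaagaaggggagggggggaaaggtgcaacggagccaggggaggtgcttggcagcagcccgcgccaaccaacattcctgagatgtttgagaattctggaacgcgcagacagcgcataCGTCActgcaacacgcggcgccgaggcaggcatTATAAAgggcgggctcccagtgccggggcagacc
Sik1: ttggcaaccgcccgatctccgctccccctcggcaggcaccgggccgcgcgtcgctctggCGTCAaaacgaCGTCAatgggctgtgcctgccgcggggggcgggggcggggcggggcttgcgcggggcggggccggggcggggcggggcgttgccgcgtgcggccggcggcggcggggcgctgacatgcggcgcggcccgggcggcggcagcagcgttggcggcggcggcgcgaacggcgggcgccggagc
Zfp36: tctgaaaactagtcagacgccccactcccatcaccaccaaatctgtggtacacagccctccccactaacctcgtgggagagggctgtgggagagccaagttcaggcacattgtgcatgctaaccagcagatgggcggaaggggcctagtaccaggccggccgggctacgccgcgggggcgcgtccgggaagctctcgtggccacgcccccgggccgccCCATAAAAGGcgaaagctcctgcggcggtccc

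The full cAMP response element began 124 bases before the start of Dusp1 and 201 bases before that of Btg2, and 1.59% of all 33469 promoters hold it. The core TGACG was in 5 of the 7 promoters (Ccn1, Apold1, Dusp1, Btg2 and Sik1), against 18.2% of all promoters. Apold1 and Ccn1 carried both TGACG and TATAAA close to the start, and Klf4 carried TATAAA alone, a motif of 12.9% of all promoters. Zfp36 held a CArG box that began 32 bases before its start (1.5% of all promoters). The AP-1 site was in 0 of 7 and in 6.34% of all promoters. These matches describe letters in a window and do not show that a factor was bound.

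Rat 12 of the 20-m group stood apart from the other rats over the transcriptome as a whole. The chi-square statistic per gene between rat 12 and the other rats of its group was 22.4 to 45.2, against 3.75 to 16.2 among those 6 rats and 3.78 to 20.9 among control rats. On the second principal component of log2 CPM (14.3% of the variance) rat 12 was at 61.0 and the other 18 rats at -16.7 to 18.8. The first component (25.1%) parted batch 1 from the other batches. Without rat 12 edgeR called 7 genes higher, the 6 called with all rats and Klf2, and 0 lower. The log2 fold changes without it were 2.49 for Apold1 (adjusted p = 1.08e-06, edgeR), 3.41 for Ccn1 (0.000127), 1.70 for Dusp1 (0.000174), 1.16 for Zfp36 (0.000273), 1.11 for Sik1 (0.0483) and 1.06 for ENSRNOG00000054344 (0.00494). All 7 rats were kept.

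In the hippocampus 20 min after the swim, 6 of 13908 genes were higher than in control rats past both thresholds, which were 1.5-fold and 0.05 for the adjusted p (edgeR quasi-likelihood test), or 0.0431% of genes tested. They were Apold1, Ccn1, Dusp1, Zfp36, Sik1 and the unnamed ENSRNOG00000054344. No gene was called lower (0 of 13908, edgeR). Before adjustment, p was under 0.05 for 544 higher (3.91%) and 506 lower genes (3.64%). DESeq2 called 15 genes higher and 0 lower, limma voom 6 and 0, and limma after ComBat 12 and 3. The limma fit after ComBat had no batch term of its own, so it made no allowance for the batch correction. Its unadjusted p was under 0.05 for 856 higher and 952 lower genes (limma), more than in edgeR. Each of the 6 genes had a fitted fold above 2, and 39 genes in all (0.28%) had a fitted fold above 2, whatever their p. The median log2 fold change over all genes tested was -0.0014.

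**Figure D1:**
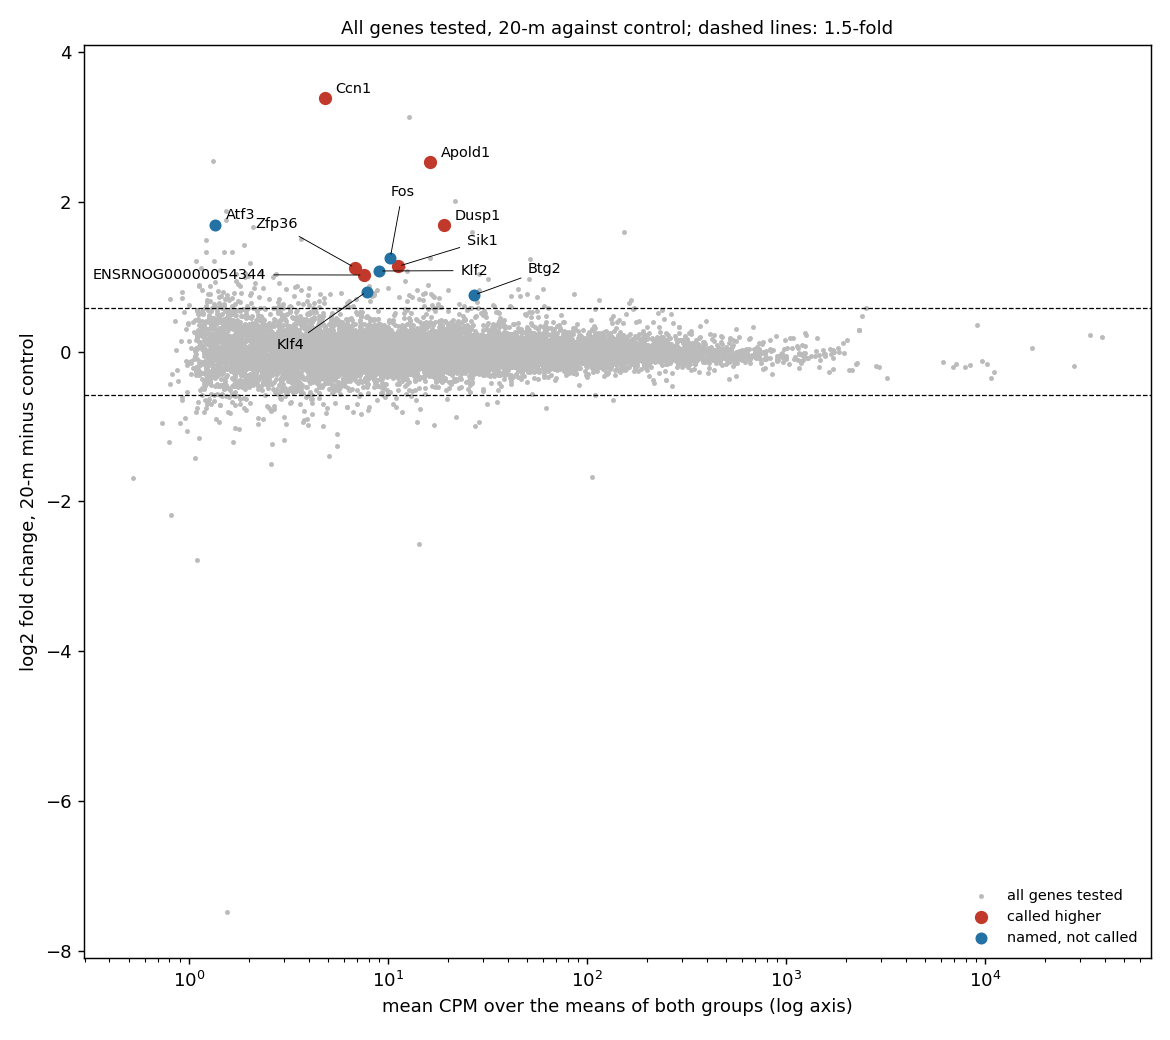
Each point is 1 of the 13908 genes tested, with the mean of the 2 group means in CPM on a log axis and the fitted log2 fold change of the 20-m group over control rats on the vertical axis. Red points are the 6 genes called higher, blue points are 5 further named genes, and the called genes lie at intermediate levels, where the scatter of all genes is narrower than at low levels.

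The levels of the called genes in single rats show how far the groups stood apart. Apold1 (ENSRNOG00000007830), which endothelial cells switch on early after a stimulus, had 3.42 CPM in the lowest, 5.49 CPM in the median and 7.35 CPM in the highest control rat. In the 20-m group it had 20.9, 27.9 and 34.4 CPM. The lowest rat of the 20-m group was thus far above the highest control rat. The fitted fold was 5.77 (95% interval 4.42 to 7.55, adjusted p = 4.36e-07, edgeR).

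Ccn1 (ENSRNOG00000014350, also called Cyr61), which encodes a secreted matrix protein that binds integrins, was scarce in control rats, with 0.142, 1.12 and 1.48 CPM in the lowest, median and highest rat. These levels rest on 1 to 12 counts per rat. In the 20-m group the levels were 4.32, 8.99 and 14.5 CPM, from 28 to 114 counts, and the groups did not overlap. The fold of 10.4 was the largest of the called genes and also the least precise (95% interval 6.17 to 17.6, adjusted p = 7.92e-05, edgeR).

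Dusp1 (ENSRNOG00000003977), a nuclear phosphatase that inactivates MAP kinases, had 5.90, 9.29 and 12.5 CPM in the lowest, median and highest control rat. The corresponding levels in the 20-m group were 24.9, 27.3 and 36.4 CPM, with no overlap. Control rats fell into a lower and an upper set, with rats 21, 22 and 25 at 5.90 to 7.12 CPM and rats 24, 27 and 28 at 11.5 to 12.5 CPM, and these sets cut across batches 1 and 3 to 5. The fold was 3.23 (95% interval 2.49 to 4.20, adjusted p = 7.92e-05, edgeR).

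Zfp36 (ENSRNOG00000058388), known as tristetraprolin, binds AU-rich elements and promotes mRNA decay. It had 3.20, 4.41 and 5.57 CPM in control rats and 6.32, 9.59 and 10.8 CPM in the 20-m group. The groups came close, between control rat 21 and rat 12 of the 20-m group, but did not overlap. The fold was 2.17 (95% interval 1.75 to 2.70, adjusted p = 0.00148, edgeR).

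Sik1 (ENSRNOG00000001189), a salt-inducible kinase that curbs the coactivators of CREB, had 5.32, 6.43 and 10.5 CPM in control rats and 10.3, 15.3 and 20.9 CPM in the 20-m group. Here the groups overlapped, since rat 5 of the 20-m group was at 10.3 CPM and control rat 24 at 10.5 CPM, and 6 of 7 rats lay above every control rat. The fold was 2.20 (95% interval 1.67 to 2.91, adjusted p = 0.0253, edgeR). This call did not stand without control rat 21 (adjusted p = 0.102, edgeR), 22 (0.125), 25 (0.134) or 27 (0.0925), nor without rat 7 (0.0531) or 10 (0.359) of the 20-m group. With each run as a library, the batches as a term and rat as a block, the adjusted p of Sik1 was 0.0506 (limma voom).

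The unnamed gene ENSRNOG00000054344 had 3.99, 4.86 and 6.13 CPM in control rats. In the 20-m group it had 7.86, 9.89 and 12.6 CPM, and the groups did not overlap. The fold was 2.03 (95% interval 1.62 to 2.56, adjusted p = 0.00978, edgeR). It was no longer called without control rat 25 (adjusted p = 0.102, edgeR) or without rat 10 of the 20-m group (0.181). ENSRNOG00000054344 has no line in the study's list. Its log2 fold change of 1.02 is close to that on the line described as Ier2, which stands under another identifier. The study names Ier2 among the genes higher at 20 min, so this may be the same gene. No symbol table was at hand to settle it.

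**Figure D2:**
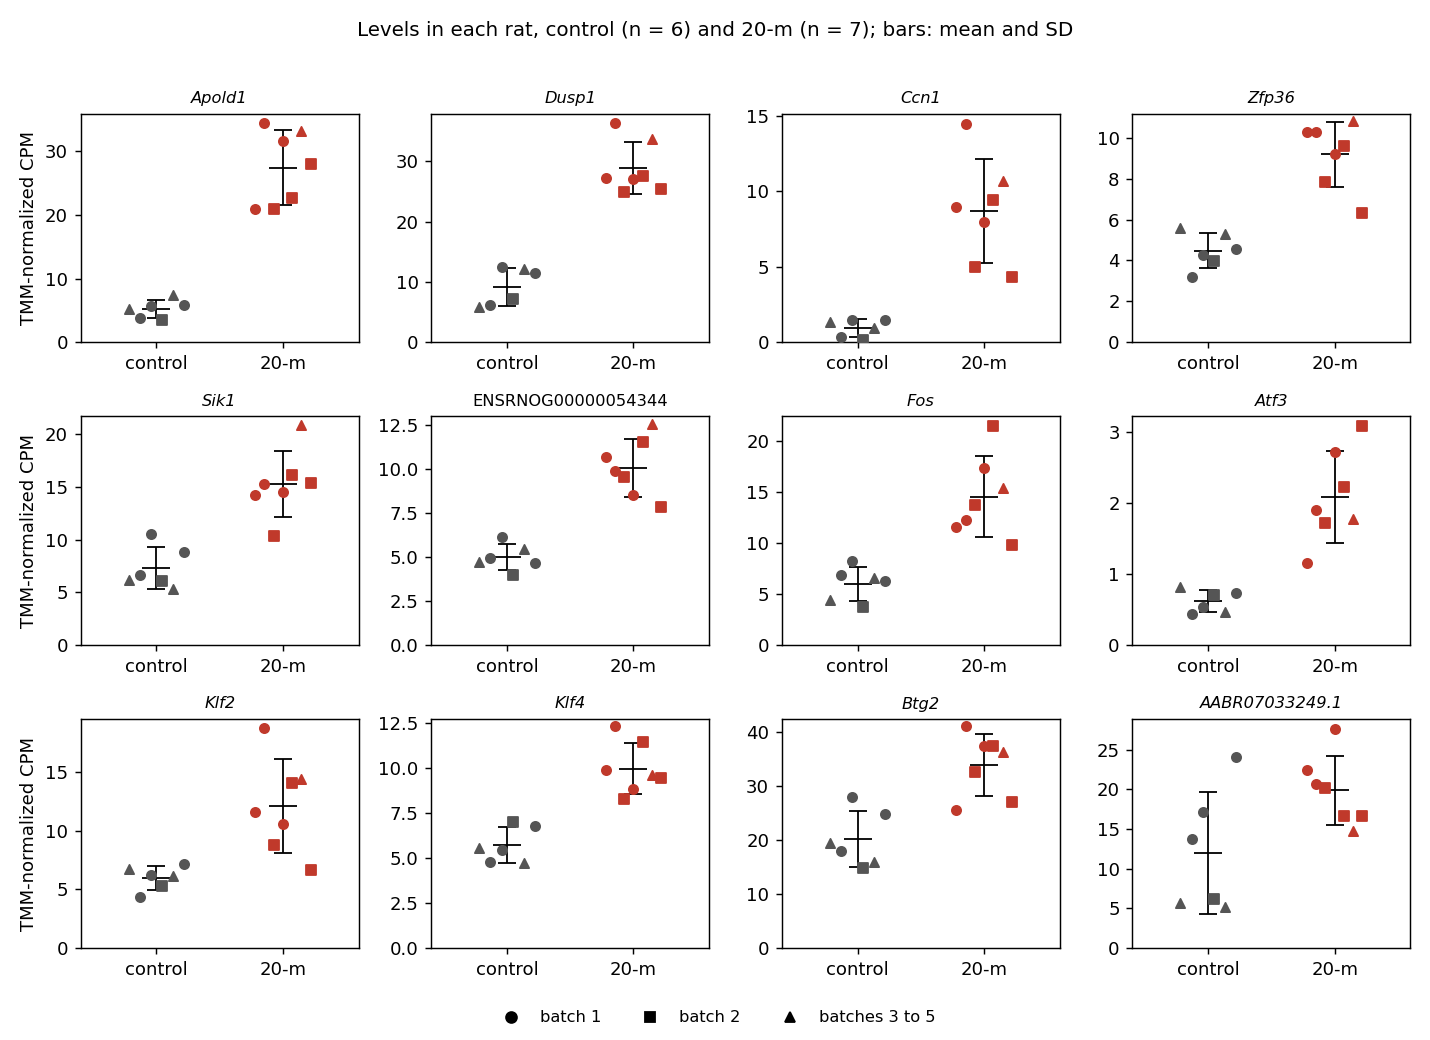
TMM-normalized CPM of 12 genes in each control rat (grey, n = 6) and each rat of the 20-m group (red, n = 7), with symbols for the batch and bars for the mean and SD. The groups do not overlap for Apold1, Dusp1, Ccn1, Zfp36, ENSRNOG00000054344, Fos, Atf3 and Klf4, and they overlap for Sik1, Klf2, Btg2 and AABR07033249.1.

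The transcription factors of the list were also higher on average 20 min after the swim, but none passed the adjusted threshold over all genes in edgeR with all rats and batch as a term. DESeq2 called Fos (adjusted p = 0.00156), Klf2 (0.00205), Atf3 (0.0223) and Klf4 (0.0245), and limma after ComBat called the same 4 (adjusted p = 0.00788 to 0.0121). Without a batch term edgeR called Fos (adjusted p = 0.0435) and Atf3 (0.026), and with no filter on low counts Fos and Klf2 (0.0229 each). Fos (ENSRNOG00000008015), a subunit of AP-1, had 3.70, 6.43 and 8.26 CPM in the lowest, median and highest control rat and 9.87, 13.8 and 21.5 CPM in the 20-m group. The groups did not overlap. The fitted fold was 2.38 (95% interval 1.67 to 3.41, adjusted p = 0.0852, edgeR), and the fit with rat as a block gave an adjusted p of 0.0452 (limma voom).

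Atf3 (ENSRNOG00000003745), a transcription factor of the ATF/CREB family induced by stress, was scarce, with 3 to 6 counts per control rat and 8 to 20 per rat of the 20-m group. Its levels were 0.442 to 0.819 CPM in control rats and 1.16 to 3.08 CPM in the 20-m group, without overlap. The fold was as large as that of Dusp1, at 3.23, but the interval was wider (2.02 to 5.17, adjusted p = 0.0852, edgeR). Without rat 1, the lowest of the 20-m group for Atf3, the adjusted p was 0.0334 (edgeR). In batch 1 alone, and without any other single rat of the 20-m group, Atf3 did not pass the filter on low counts.

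Klf2 (ENSRNOG00000014205), a Kruppel-like factor of endothelium, had 4.31, 6.18 and 7.15 CPM in control rats and 6.63, 11.6 and 18.8 CPM in the 20-m group. Only rat 12 lay within the control range. The fold was 2.11 (95% interval 1.56 to 2.86, adjusted p = 0.0852, edgeR), and it was called when rat 12 was left out (adjusted p = 0.0172, edgeR). Klf4 (ENSRNOG00000016299), a related factor, had 4.69, 5.52 and 6.98 CPM in control rats and 8.29, 9.58 and 12.3 CPM in the 20-m group. These groups did not overlap, at a fold of 1.74 (95% interval 1.35 to 2.25, adjusted p = 0.163, edgeR).

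Btg2 (ENSRNOG00000003300), an antiproliferative protein that recruits deadenylases, differed less. Control rats had 14.8, 18.7 and 28 CPM and the 20-m group 25.5, 36.2 and 41.1 CPM. Rats 1 and 12 of the 20-m group lay within the control range, below control rat 24. The fold was 1.69 (95% interval 1.36 to 2.10, adjusted p = 0.0852, edgeR). The adjusted p was 0.0252 without control rat 24 and 0.0272 without rat 1 (edgeR), and 0.0312 with rat as a block (limma voom). DESeq2 (adjusted p = 0.00175), limma after ComBat (0.00828) and edgeR with no filter on low counts (0.0259) also called it.

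AABR07033249.1 (ENSRNOG00000055160), a gene known only by a clone name, spanned 5.16 to 24.0 CPM in control rats and 14.8 to 27.7 CPM in the 20-m group. Only 1 of 7 rats exceeded every control rat. Within control rats the level moved with batch, at 13.7 to 24.0 CPM in batch 1 against 6.12 CPM in batch 2, and its log2 fold change was 0.90 with batch as a term and 0.71 without it. The fold with the batch term was 1.86 (95% interval 1.36 to 2.56, adjusted p = 0.295, edgeR). It was called by DESeq2 (adjusted p = 0.0249) and by limma after ComBat (0.0368).

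Among genes lower in the 20-m group, the 2 identifiers of the study's list with uncertain symbols are given. ENSRNOG00000053462 has a transcript length of 134 bases in the files, and its line in that list pairs a symbol and a description of different genes. That line gives the identifier as higher in the 20-m group, opposite to the direction here. Its log2 fold change is, however, close to that of ENSRNOG00000054344 here (1.02). A line under ENSRNOG00000032585 in that list is lower by about as much as ENSRNOG00000053462 is here. The identifiers of these lines may thus be displaced, and the opposite direction may belong to another gene, which was not tested. The level of ENSRNOG00000053462 moved strongly with batch. In batch 1 it had 0.493 to 0.552 CPM in control rats and 0 to 0.145 CPM in the 20-m group, from at most 5 counts. In batch 2 the control rat had 5.84 CPM and the rats of the 20-m group 3.44 to 4.47 CPM. The 20-m group was thus below control rats within both batches, while the groups overlapped over all rats. With batch as a term the log2 fold change was -1.19 (95% interval -1.76 to -0.61, adjusted p = 0.206, edgeR), and without it -0.85 (adjusted p = 0.902, edgeR). ENSRNOG00000032585 had no counts in any of the 7 rats 20 min after the swim, and 14, 16, 26, 42 and 43 counts in 5 of 6 control rats. It also had 0 counts in control rat 21 and counts in only 3 of 6 rats decapitated 24 h after the swim. In control rat 27 the rounded counts of runs 1, 2 and 3 were 0, 14 and 13, so a run without counts also occurred in a rat with counts. Read assignment was uncertain for this gene, since RSEM's upper bounds in single-run rats with no counts were 2.71 to 5.15 TPM and the lower bounds of control rats 0.0402 to 0.663 TPM, so the bounds overlapped. Its adjusted p was 0.339 (edgeR). Limma after ComBat called both genes lower (adjusted p = 0.0368 each).

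The comparison can also be described within each batch. The named genes come from the study's list, chosen on these rats in all batches, so this is no independent repeat. In batch 1, with 3 rats against 3, the groups did not overlap for 9 of the 10 genes with a gene symbol other than the clone name, and Btg2 was the exception. In batch 2 the 3 rats of the 20-m group stood above the only control rat for 10 of 10. Among all genes tested, 5.16% met the first condition and 21.7% the second, and 14.9% had higher means at 20 min in each of the 3 batch levels. The size of the difference was steady for some genes and not for others. Apold1 differed by 2.43, 2.70 and 2.37 in mean log2 CPM in batch 1, batch 2 and batches 3 to 5, and Dusp1 by 1.61, 1.82 and 1.95. The Sik1 difference was 0.76 in batch 1 and 1.81 in batches 3 to 5, where the only rat of the 20-m group is rat 10, the highest of all rats for this gene. Fos differed by 0.91 in batch 1 and 1.87 in batch 2, and Btg2 by 0.55 and 1.10. Batch 1 alone gave no call for any gene in edgeR, with 247 higher and 195 lower genes under 0.05 before adjustment. Whether these differences themselves vary by batch was not tested.

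Exchanging group labels within batches gives 240 arrangements and a smallest possible p of 0.00417. The exact permutation test (2-sided) of the batch-adjusted difference reached this p for 12 of the 15 genes described, which include all 6 called genes and Fos, Atf3, Klf2, Klf4, ENSRNOG00000005634 and ENSRNOG00000053462, which edgeR did not call. For Btg2 and ENSRNOG00000032585 the exact permutation p was 0.00833, and for AABR07033249.1 it was 0.0125. These genes were chosen because they differed between these same rats, so the count is a description and no independent support. The test was run on them alone, and the share of all genes that would reach this p is not known.

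**Figure D3:**
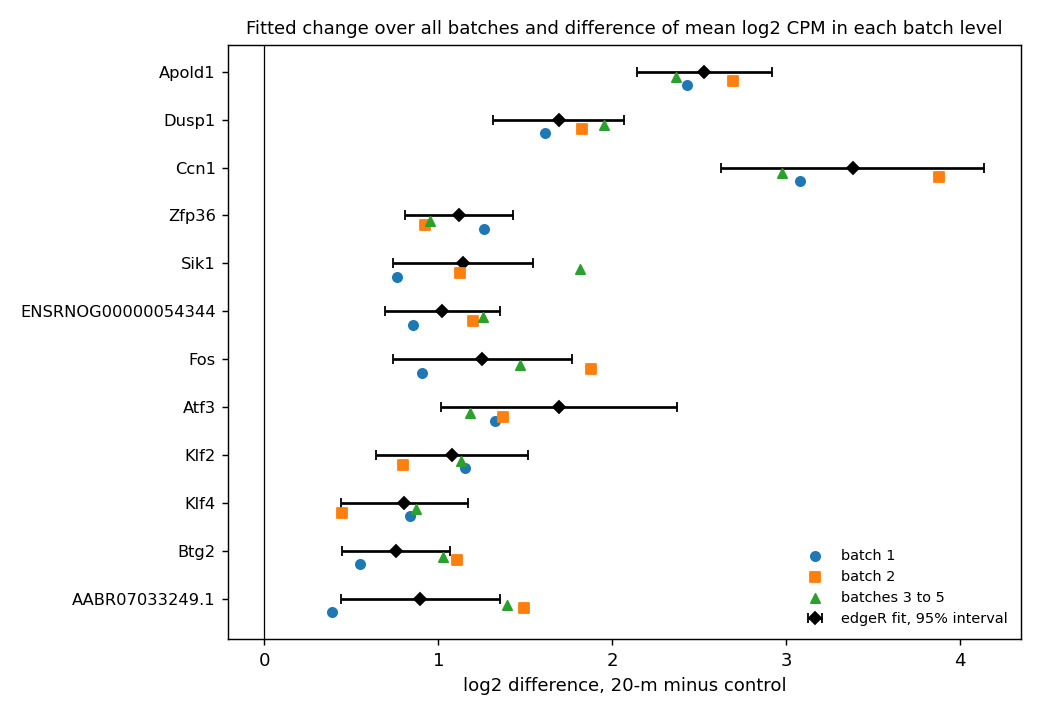
Log2 difference between the 20-m group and control rats for 12 genes, with the edgeR estimate and its 95% interval (black) and the difference of mean log2 CPM in batch 1, batch 2 and batches 3 to 5 (coloured). All batch values are above 0, from 0.39 for AABR07033249.1 in batch 1 to 3.88 for Ccn1 in batch 2.

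The repeat runs of rats 10, 21 and 27 show the technical spread of single genes at less than the summed depth. Runs of the same rat gave a chi-square statistic of 1.26 to 1.41 per gene, below the values between rats of a group. The runs held only 1614506 to 3937452 counts each, and pairs of rats could cross the main batches. No allowance was made for this depth or for batch. All 3 runs of rat 10 lay above all 6 control runs for 9 of the 10 genes, which was so for 7.36% of genes tested. Apold1 was at 29.5 to 42.4 CPM in the runs of rat 10 and at 3.38 to 10.2 CPM in the control runs. Dusp1 was at 30.8 to 40.1 CPM against 4.77 to 17.6 CPM. The runs of control rat 27 alone ranged from 8.11 to 17.6 CPM for Dusp1, and all of them lay above those of control rat 21. Zfp36 runs came closest without overlap, at 6.66 to 12.3 CPM against 4.51 to 6.45 CPM. Btg2 overlapped narrowly, with a lowest run of 21.8 CPM in rat 10 and a highest control run of 22 CPM.

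**Figure D4:**
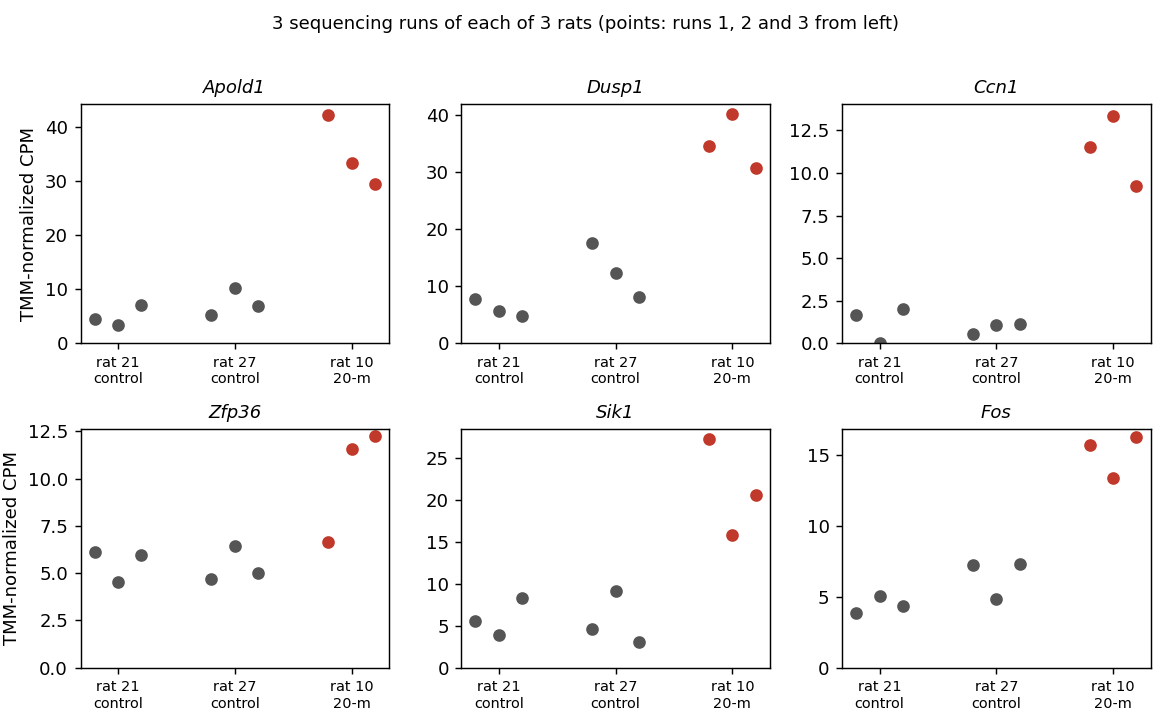
TMM-normalized CPM of 6 genes in the 3 sequencing runs of control rats 21 and 27 (grey) and of rat 10 of the 20-m group (red). The runs of rat 10 lie above every control run in each panel, and the runs of a rat scatter most, relative to their level, where counts are low.

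Levels were compared between genes only in TPM, which accounts for transcript length. In control rats Btg2 was highest of the 10 genes, at a median of 9.57 TPM, and Atf3 lowest, at 0.455 TPM. At 20 min Btg2 and Dusp1 were nearly level, at 19.5 and 18.8 TPM, and their ranges over rats, 11.9 to 21.1 TPM and 15.7 to 25.8 TPM, overlapped. Apold1 passed from 2.55 to 11.4 TPM, close to Fos at 11.9 TPM. Ccn1 passed from 0.741 to 5.44 TPM, a level near that of Klf4 (4.99 TPM). Sik1, with a transcript length of 4984 bases in the files, was low per length in both groups, at 1.71 TPM in control rats and 3.86 TPM at 20 min. RSEM's credibility bounds, which reflect counting and read assignment within a library, were available for the 10 rats sequenced in a single run. The lowest lower bound of the 20-m group lay above the highest upper bound of control rats only for Apold1 (7.06 against 3.93 TPM) and Dusp1 (13 against 11.1 TPM) among the genes described here. Ccn1 nearly did so, at 1.70 against 1.85 TPM. The bounds were compared for these genes alone, which were chosen on the same rats, so the share over all genes is not known.

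The rats of the 20-m group did not stand in the same order in every gene. No rat has a level from before the swim, and ranks were not adjusted for batch or counting error. They are therefore ranks of level and not of response. Rat 2 was highest of the 7 in 6 of the 10 genes and rat 10 in 2. Rat 12 was lowest in 4, and rats 1 and 5 in 3 each. Rat 12 was nevertheless the highest rat for Atf3, and rat 7 for Fos. The median log2 difference of a rat from the control medians over the 10 genes was 0.93 (rat 5) to 1.39 (rat 7). Together the 10 genes came to at least 131 CPM before TMM normalization in all 7 rats at 20 min, with a median of 171 CPM, and to 49.6 to 85.0 CPM in control rats (median 62.8). The spread between rats on the log2 scale exceeded that of control rats for 2 of the 10 genes in the 20-m group, Atf3 and Klf2. Over all genes tested the median SD was 0.24 in the 20-m group and 0.19 in control rats. These genes were chosen on the same rats, and these ranks and shares are a description.

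Across all genes, 19 had every rat of the 20-m group above every control rat (0.137% of genes tested) and 17 had every rat below (0.122%). Without rat 12 these were 35 and 24 genes, as the condition then rests on fewer rats. With all rats the 2 counts were close, but the changes differed in size. Of the 19 higher genes 9 passed a 1.5-fold change, with log2 fold changes of 0.15 to 3.38 (median 0.58). Among the 19, 8 are described here, including the unnamed ENSRNOG00000054344. Of the 17 lower genes 1 passed a 1.5-fold change, and the largest log2 change was 0.71 in size (median 0.28). Without regard to p, 183 genes were over 1.5-fold higher (1.32%) and 114 over 1.5-fold lower (0.82%).

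The precision of the data limits what can be said of genes that were not called. For 10844 genes (78% of those tested) the 95% interval lay within 1.5-fold in both directions, at a median standard error of 0.119 on the log2 scale. This held for 95.7% of genes above 30 CPM and 89.8% of those from 10 to 30 CPM, but for 64.2% from 3 to 10 CPM and 14.2% from 1 to 3 CPM. Of the 6 called genes, 3 lay in the class from 3 to 10 CPM and 3 in that from 10 to 30 CPM. For genes at the level of Atf3 and of Ccn1 in control rats, changes of 1.5-fold were mostly not detectable at this depth. The whole interval was above 1.5-fold for 12 genes and below it, in the lower direction, for 3.

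The 20-m group was also set against the 6 rats decapitated 24 h after the swim, which had gone through the same pretest and test. In the same fit, 5 genes were higher at 20 min at both thresholds (0.036% of genes tested) and 0 lower (edgeR). They were Apold1 (log2 difference 2.34, adjusted p = 1.08e-06, edgeR), Ccn1 (3.49, adjusted p = 0.000121), Dusp1 (1.51, adjusted p = 0.000283), Btg2 (0.89, adjusted p = 0.024) and ENSRNOG00000005634 (0.81, adjusted p = 0.0022). The last, named after its values were seen, had 9.23, 12.1 and 17.3 CPM in control rats and 15.7, 19 and 23.1 CPM in the 20-m group (fold 1.48, adjusted p = 0.0852 against control, edgeR). Of the genes called against control rats, 3 did not pass against the 24-h group, namely Sik1 (0.59, adjusted p = 0.213), Zfp36 (0.74, adjusted p = 0.0778) and ENSRNOG00000054344 (0.72, adjusted p = 0.0868, edgeR). For Sik1 the levels of the 24-h group ran from 8.19 to 17.5 CPM, overlapping with the 20-m group at rat 13.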

How the data were processed

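Hippocampal poly(A) RNA of rats was sequenced in 25 libraries. The authors trimmed reads with AdapterRemoval and aligned them (STAR). They deposited expected counts of RSEM without normalization, and TPM values with credibility bounds for 32623 genes of the rat Ensembl annotation. For STAR and RSEM no version is named in the sources used here. Groups, rats and batches came from the labels. The 3 runs of rats 10, 21 and 27 were summed and expected counts rounded.

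Groups were compared by the quasi-likelihood test of edgeR 4.0.16 (R 4.3.3) with TMM, filterByExpr defaults (minimum count 10, total 15), group and 3 batch levels as terms, and all 19 rats in 1 fit with 14 residual degrees of freedom, tested on simulated data beforehand. Adjusted p is Benjamini-Hochberg over 13908 genes. Intervals are at 95%, not adjusted over genes. Log2 CPM has a prior count of 2. TPM of summed rats was weighted by run totals. The run numbers of rats 10, 21 and 27 mark batches 3 to 5 in the labels. A fit with each run as a library, the 5 batches as a term and rat as a block (correlation 0.42) was an alternative in limma voom. The other alternatives were other scalings, DESeq2 1.42.0, ComBat (sva 3.50.0) before limma 3.58.1, other batch terms, subsets, filters, TPM, and each rat left out.

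Genes named were all called genes, genes with a symbol that moved alike in each batch level, and genes the study names. Members, lists and tests were chosen with earlier results of these data known. Names came from the study's list of 13 identifiers, of which 11 were used with a symbol. The reference gene table matched 0 of the identifiers, so pathway and marker lists (0 genes matched) are not reported. ENSRNOG00000032585 appears on several lines of that list, and the line of ENSRNOG00000053462 joins a symbol and a description that differ, so both are given by identifier. ENSRNOG00000005634 was chosen after its values were seen. The authors' own fold changes are cited only for direction and closeness to values here, on the lines of ENSRNOG00000053462 and ENSRNOG00000032585. Their p-values are not cited. The study text gives 6 rats at 20 min in its results and 7 in its methods, and all 7 labelled rats were used.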

Additional observations from a re-analysis of the deposited data

Results flagged for a closer look

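In 29 sets of values (each gene described here in control rats and in the 20-m group, without the set that was constant at 0), 1 rat stood apart from its group. For ENSRNOG00000032585, control rat 21 had 0 CPM while the next control rat had 1.77 CPM, a gap of 0.655 of the whole range on the log2 scale, above the limit for 6 rats. Chance alone gives about 1 such set in 20.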

How the results depend on the processing

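The count of genes called higher was 6 in edgeR and between 4 and 9 under 12 of 15 other settings, and 4 to 8 when each rat was left out in turn. DESeq2 called 15 higher, limma after ComBat 12, and batch 1 alone 0. The count of genes called lower was 0 except for 3 with limma after ComBat, ENSRNOG00000032585 and ENSRNOG00000053462 among them, and 1 with no filter, and 0 without each rat. With each run as a library, the 5 batches as a term and rat as a block, limma voom called 7 genes higher and 0 lower. That fit changed the calls of Sik1, Btg2 and Fos and of no other gene with a symbol. No named gene changed direction under any setting run. Apold1, Ccn1, Dusp1 and Zfp36 were called in 13 of 14 other settings, all but batch 1 alone, and without each of the 13 rats. Sik1 was called in 8 of 14 and ENSRNOG00000054344 in 10 of 14. Medians of gene lists were not run. Where calls were lost in batch 1 alone, 6 rats of the compared groups remained, and for other settings the cause was not tested. Depth limits genes under 3 CPM most, and counting intervals cover counting error only.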
